A study of Rattus norvegicus with 3 samples.

Results

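The regions described here are those where methylated DNA captured from the livers of MLP-F newborn rats exceeded that from C newborns. MLP-F pups were born to dams fed 9% casein with 5 mg/kg folic acid during pregnancy, and C pups to dams fed 18% casein with 1 mg/kg folic acid. All regions on chromosomes 1 to 20 in the deposited comparison of the MLP-F library with the C library were taken, without any choice by score. There were 24305 of them, out of 25578 in that comparison and 95306 in the 3 deposited comparisons together. The remaining diet, MLP (9% casein, 1 mg/kg folic acid), was compared with C and with MLP-F in the other lists, which are used below only to set values side by side.

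All animals were male Wistar rats on postnatal day 1, and folic acid was raised only on the low protein diet, so the diets of MLP-F and C differed in both protein and folic acid and their parts cannot be told apart. Each group was 1 litter, and its DNA was pooled into 1 library. The sample labels give 6 animals per pool, whereas the study's methods give 8. There was therefore no replicate on either side and no test of diet, and diet, litter and library preparation cannot be told apart. The list holds regions higher in MLP-F only. Regions lower in MLP-F than in C were not analysed here.

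In mammals, methyl groups are added to cytosines, chiefly those followed by guanine (CpG). Folate carries the carbon units from which S-adenosylmethionine, the methyl donor of the DNA methyltransferases, is made, and protein supplies methionine and other amino acids to the same cycle. Capture with the methyl-CpG binding domain (MBD) pulls down fragments of methylated DNA, so that sequenced reads pile up where CpGs are both dense and methylated. It gives enrichment over stretches of DNA about as long as a sheared fragment, not the methylation level of a single CpG.

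Each region carried a score from MACS, the peak caller used in the study. The score is −10 log10 of the p-value for more MLP-F than C reads in that region, so that the lowest value in the list, 50, stands for 1e-05. It compares reads of a single pair of libraries, and it rises with read number as well as with the difference. By the study's own tag numbers the MLP-F library was sequenced more deeply than the C library. The depth behind each region is unknown, because the list gives neither reads, fold enrichment nor false discovery rate. How many of the regions are false could therefore not be estimated from it. The study itself kept regions by false discovery rate before naming genes. The list described here is from before any such selection, so a region in it has passed the p-value limit only.

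Most regions lay near the lower limit of the score. The median was 69.3, the quartiles were 57.9 and 90.5, and 10% of regions scored above 123.7. Of the 24305 regions, 7407 (30.5%) scored under 60 and 12335 (50.8%) from 60 to under 100. A further 4022 (16.5%) reached 100 to under 200, and 496 (2.04%) reached 200 to under 500. Only 40 regions scored from 500 to under 1000, and 5 scored 1000 or more, up to 2035. The lowest scores formed no separate group, since 708 regions lay under 51 and the lowest 5 lay between 50 and 50.01.

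The scores were lower than in the other comparisons. A score of at least 100 was held by 18.8% of MLP-F vs. C regions (Wilson 95% interval 18.3 to 19.3), against 30.7% (30.2 to 31.2) for MLP vs. C and 36.3% (35.7 to 36.8) for MLP vs. MLP-F. Median scores were 69.3, 77.0 and 81.4 in the same order. At the top the counts were 5, 66 and 72 regions with scores of 1000 or more. The lists came from libraries of different depth and share libraries, and the intervals cover counting error only, so these are side-by-side values without a test. The part of depth in them was not tested.

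**Figure D1:**
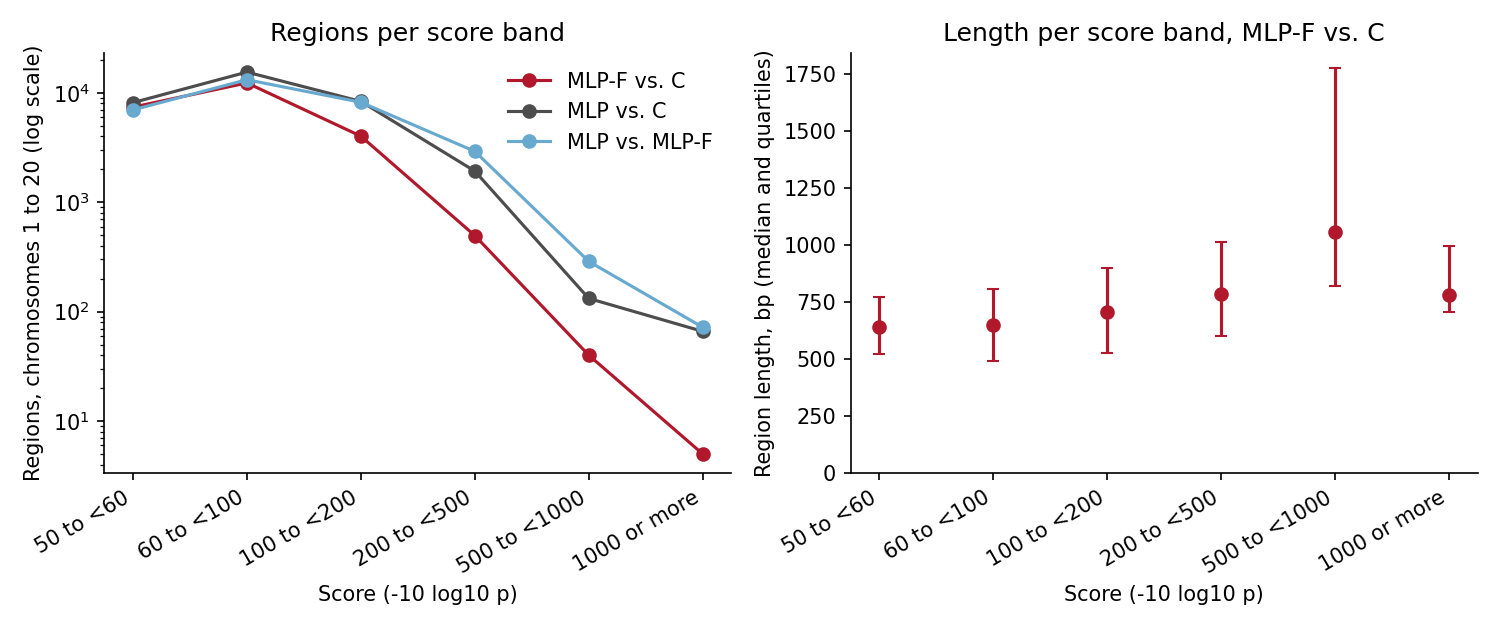
Left, number of regions on chromosomes 1 to 20 (log scale) in each band of score (−10 log10 p) for the 3 comparisons. Right, median length in bp with quartiles as bars for MLP-F vs. C regions in each band. The MLP-F vs. C list falls from 12335 regions at 60 to under 100 to 5 at 1000 or more, and median length rises from 640 bp in the lowest band to 1054 bp at 500 to under 1000.

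The regions were mostly under 1 kb long. The median was 655 bp and the quartiles 510 and 816 bp, with a mean of 700.2 ± 292.9 bp (SD over regions). Lengths ran from 250 to 8479 bp. Together the regions covered 17.02 Mb, or 0.666% of the 2557 Mb spanned by the 20 chromosomes. Median lengths in the other lists were 670 bp (MLP vs. C) and 722 bp (MLP vs. MLP-F). DNA was sheared to about the length of these regions before capture, which sets a limit on how finely they can be placed.

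Length rose with score up to the band below 1000. Median lengths were 640 bp under 60, 648 bp from 60 to under 100, 706 bp from 100 to under 200, 783 bp from 200 to under 500 and 1054 bp from 500 to under 1000. The 5 regions of 1000 or more were again shorter, with a median of 781 bp and a maximum of 1121 bp. Regions of 2 kb or more numbered 106 (0.436% of the list) and lay on all 20 chromosomes. Their scores ran from 50.1 to 765.5 with a median of 93.2, and 47 of them (44.3%) scored at least 100. Both measures come from the same reads, and the list gives no read numbers, so the part of read number in this was not tested.

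The 5 longest regions were not the highest-scoring. The longest, chr12:4360717-4369195, was 8479 bp long with a score of 85.1. It lay 23461 bp beyond the annotated intronic region of Zar1l, a zygote arrest family gene. A neighbour 30.5 kb further on, chr12:4399700-4405096, was 5397 bp long and scored 600.8, place 27 in the list. It was followed by chr12:4408660-4411933, a region of 3274 bp with a score of 421.4, so that 3 long regions stood together in this stretch of chromosome 12. In the same stretch with 100 kb on either side, MLP vs. C had 4 regions and MLP vs. MLP-F had 8. Of the others, chr14:49295231-49301613, was 6383 bp with a score of 216.0. The region chr1:33120166-33125930 was 5765 bp and chr4:182542904-182548106 was 5203 bp, and they scored 98.8 and 99.8. None of the 5 longest overlapped a region listed in the other comparisons.

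The highest-scoring region was chr19:44905280-44906273, with a score of 2035. The place overlapped no region of the study's gene-annotated tables. Before it, the nearest annotated region with a symbol matched to a RefSeq gene was that of Syce1l, at a distance of 1248353 bp. Nearer than Syce1l, the listed region chr19:44739982-44741164 overlapped an annotated region without a symbol. The same place scored 120.0 in MLP vs. C and was absent from MLP vs. MLP-F.

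The next 2 were chr3:91745716-91746496, at 1550, and chr6:132844396-132845516, at 1514. The one on chromosome 3 overlapped no annotated region. The one on chromosome 6 lay in an intron of Eml1, which encodes a microtubule-associated protein, and was the only region among the 10 highest with an annotated gene. In MLP vs. C these places scored 176 and 129, and neither was in the MLP vs. MLP-F list. These loci were chosen for their MLP-F vs. C scores, so the lower scores in the other list are given as a description only.

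The remaining regions over 1000 were chr1:171993258-171993935 (1199; 56.4 in MLP vs. C) and chr15:3049753-3050456 (1087; 140 in MLP vs. C). The region on chromosome 15 lay 67153 bp before an intronic annotated region of Adk, adenosine kinase, an enzyme that clears the adenosine formed when S-adenosylhomocysteine is broken down. It had 10 other listed regions within 100 kb, the most of the 10 leading loci. Among these, chr15:3117988-3118883 overlapped that annotated region of Adk and scored 70.0. At place 6, chr15:84834326-84834667, scored 957. It was the shortest of the 10 at 342 bp, had no other listed region within 100 kb and was in neither of the other lists.

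At place 7 was chr12:42509434-42510423, which scored 941. It lay 16024 bp beyond an annotated region downstream of Cox6a1, a subunit gene of cytochrome c oxidase. It scored 91.6 in MLP vs. C. At place 8 was chr1:242506095-242507112, which scored 918 and was in neither of the other lists, with the nearest region of each 31865 bp away. Places 9 and 10 were both near the end of chromosome 9. The region chr9:110385215-110387068 scored 821, and 404 in MLP vs. C, and lay 397805 bp beyond an intronic annotated region of Dlgap1, a postsynaptic scaffold gene. The region chr9:109217851-109219392 scored 803, and 77.9 in MLP vs. C. None of the 10 was in the MLP vs. MLP-F list, in which MLP-F was the control side. The region at place 11 scored 795, so no gap set the 10 apart.

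**Figure D2:**
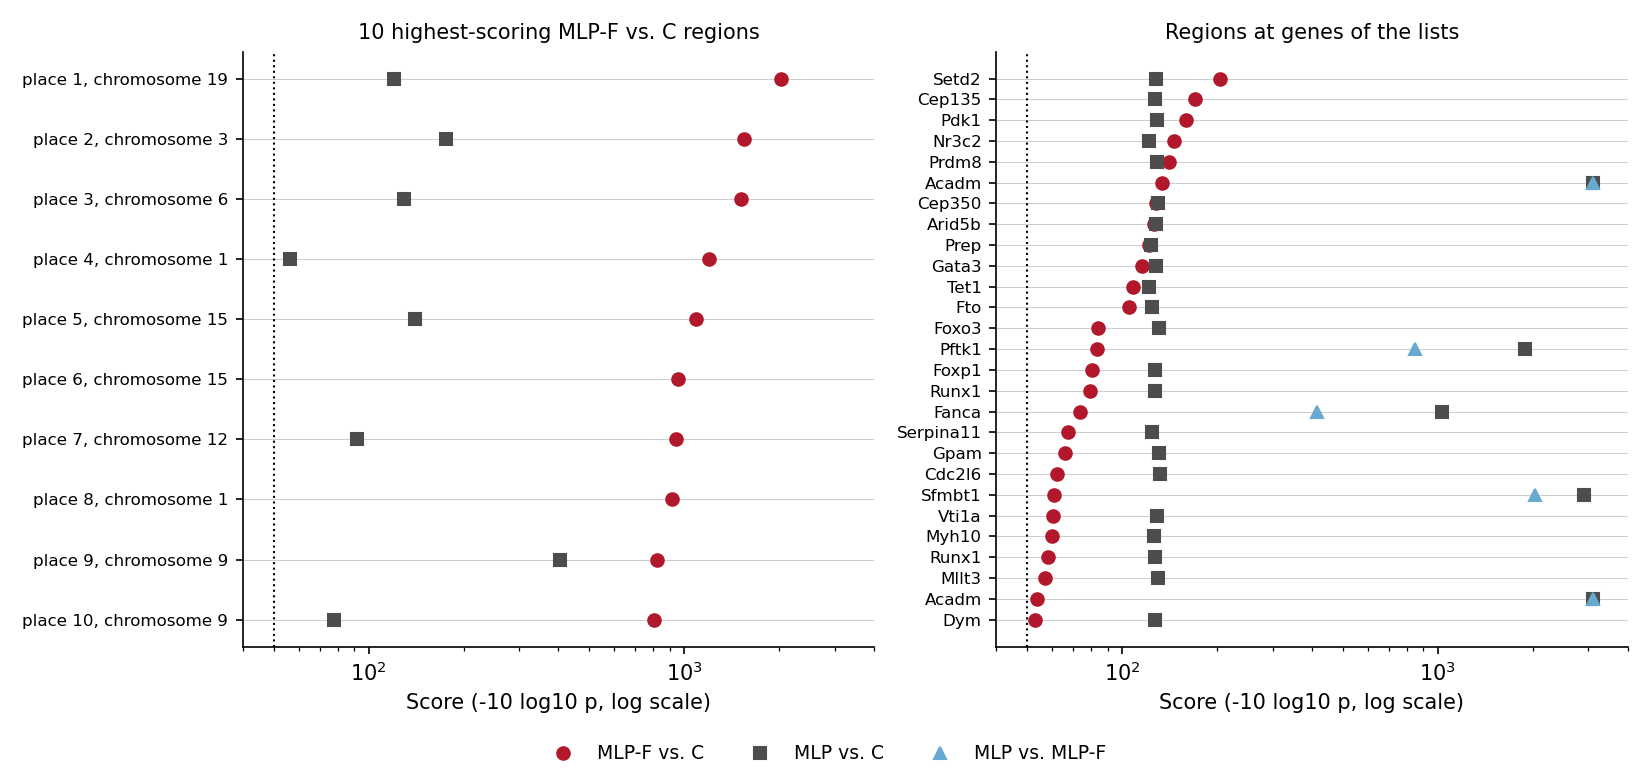
Scores (−10 log10 p, log scale) of the same places in the 3 comparisons, with the dotted line at the lowest listed score of 50 and no point where a place is not listed. Left, the 10 highest-scoring MLP-F vs. C regions, from 803 to 2035, with MLP vs. C scores of 56.4 to 404 where listed. Right, the regions at genes of the lists described below, from Dym at 53.0 to Setd2 at 205, most beside a MLP vs. C score near 130.

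The 45 regions with scores of at least 500 were spread over 18 of the 20 chromosomes. Chromosome 1 held 5, and chromosomes 13 and 16 held 4 each. Their median length was 1018 bp, and 8 of them were 2 kb or longer. Only 2 overlapped an annotated region, those at Eml1 and Lsm6.

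Regions were found on every chromosome at between 7.56 and 15.03 per Mb, a 1.99-fold range, with 9.51 per Mb over all. Chromosome 12 was the densest, with 703 regions and 15.03 per Mb (exact Poisson 95% interval 13.9 to 16.2). It was followed by chromosome 19 with 13.1 (12.2 to 14.0) and chromosome 20 with 12.1 (11.2 to 13.0). Chromosome 17 came next with 11.2 (10.5 to 11.8). Chromosome 5 was the sparsest with 1309 regions and 7.56 per Mb (7.16 to 7.98), and chromosome 2 was close to it with 7.79 (7.45 to 8.13). The intervals of chromosomes 5 and 2 overlapped, as did those of 19 and 20 and those of 12 and 19, whereas 12 and 20 were apart. For 8 chromosomes the interval lay above the rate over all, and for 6 it lay below. The intervals treat regions as independent, which their clustering described below does not bear out.

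The same 3 chromosomes, 12, 19 and 20, were the densest in the other lists, at 24.5, 18.6 and 19.8 per Mb in MLP vs. C and at 26.7, 17.04 and 18.9 in MLP vs. MLP-F. Relative to each list's own rate over all, chromosome 12 stood at 1.58 in MLP-F vs. C, 1.83 in MLP vs. C and 2.16 in MLP vs. MLP-F. The ratio of the densest to the sparsest chromosome was 1.99, 2.23 and 2.76 in that order. Chromosome 5 was the sparsest only in MLP-F vs. C. Its rates of 12.4 and 13.5 per Mb in the other lists were 0.929 and 1.09 times their own rates over all, against 0.796 here. Scores and lengths varied little between chromosomes. Median scores lay between 67.7 and 70.6 and median lengths between 632 and 693 bp.

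**Figure D3:**
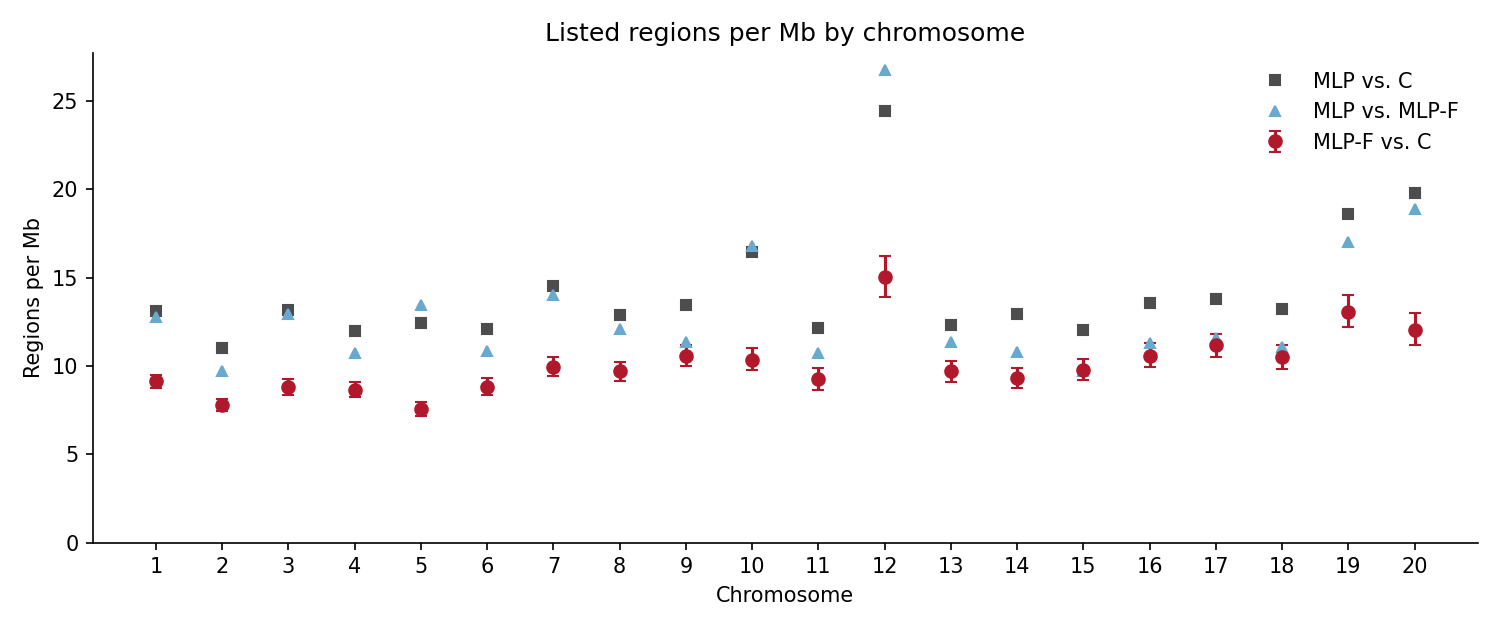
Listed regions per Mb on chromosomes 1 to 20. Circles are MLP-F vs. C regions with exact Poisson 95% intervals, and squares and triangles are the other comparisons. MLP-F vs. C runs from 7.56 per Mb on chromosome 5 to 15.03 on chromosome 12, and chromosomes 12, 19 and 20 stand highest in all 3 comparisons.

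Along the chromosomes the regions were more frequent towards the end of the numbering. With each chromosome divided into 10 equal parts, the last part held 3568 regions (14.7%, Wilson 95% interval 14.2 to 15.1) and the part before it 3051 (12.6%, 12.1 to 13.0). The 2 parts in the middle held least, with 1938 (7.97%) and 1924 (7.92%). The last part was also the fullest in MLP vs. C (14.1%) and in MLP vs. MLP-F (13.3%).

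Neighbouring regions were usually far apart compared with their length. The median gap between neighbours was 49937 bp over 24285 gaps, with quartiles of 18272 and 119082 bp, and the mean of 104139 bp was far above the median. Gaps under 10 kb made up 15.6% (15.2 to 16.1) and gaps under 1 kb 2.26%. Gaps under 10 kb made up 19.5% of those in MLP vs. C and 20.1% of those in MLP vs. MLP-F, in lists of 34126 and 31671 regions. At the other end, 147 gaps exceeded 1 Mb, against 29 and 21. The longest ran for 3408952 bp on chromosome 4, between 96815079 and 100224032, where MLP vs. C had 14 regions and MLP vs. MLP-F had 36. A stretch without a listed region is one where MLP-F did not exceed C past the limit, not one without methylation.

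With neighbours under 10 kb apart joined into runs, 17458 regions (71.8%) stood alone. The other 6847 formed 2489 pairs, 444 runs of 3 and 120 runs of 4 or more. The longest run was 8 regions in 18249 bp, chr16:38924751-38942999, with scores from 53.0 to 692.9 and a median of 172. The same stretch held 7 regions in MLP vs. C and none in MLP vs. MLP-F. Runs of 7 lay at chr1:16454408-16487480, with a highest score of 146, and at chr2:217865759-217902434, with a highest score of 108. Of the runs of 6, chr13:30427566-30453324 reached 460 and its neighbour chr13:30469638-30485193 reached 312. Another, chr3:129897-156174, lay at the very start of chromosome 3 and reached 334. Runs could thus be made of high-scoring or of low-scoring regions. Because MACS splits or joins stretches by its own rules, a run can also be 1 wider stretch of enrichment cut into parts.

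In bins of 1 Mb, the median was 8 regions among the 2516 bins that held any, and 54 of 2570 bins held none. Dense bins, defined as those with at least 3 times the median (24 or more regions), numbered 98, or 3.90% of the bins with a region, and held 2675 regions (11.01%). Every chromosome had at least 1. Chromosome 20 had the highest share, with 6 of 56 bins (10.7%), and chromosomes 15, 17 and 14 followed with 7.27%, 7.14% and 7.08%. Chromosome 12, the densest over its whole length, had 3 of 47 (6.38%). Chromosomes 5 and 6 each had 1 dense bin, in 174 and 148 bins. By the same definition MLP vs. C had 78 dense bins (33 or more regions) and MLP vs. MLP-F had 133 (30 or more).

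**Figure D4:**
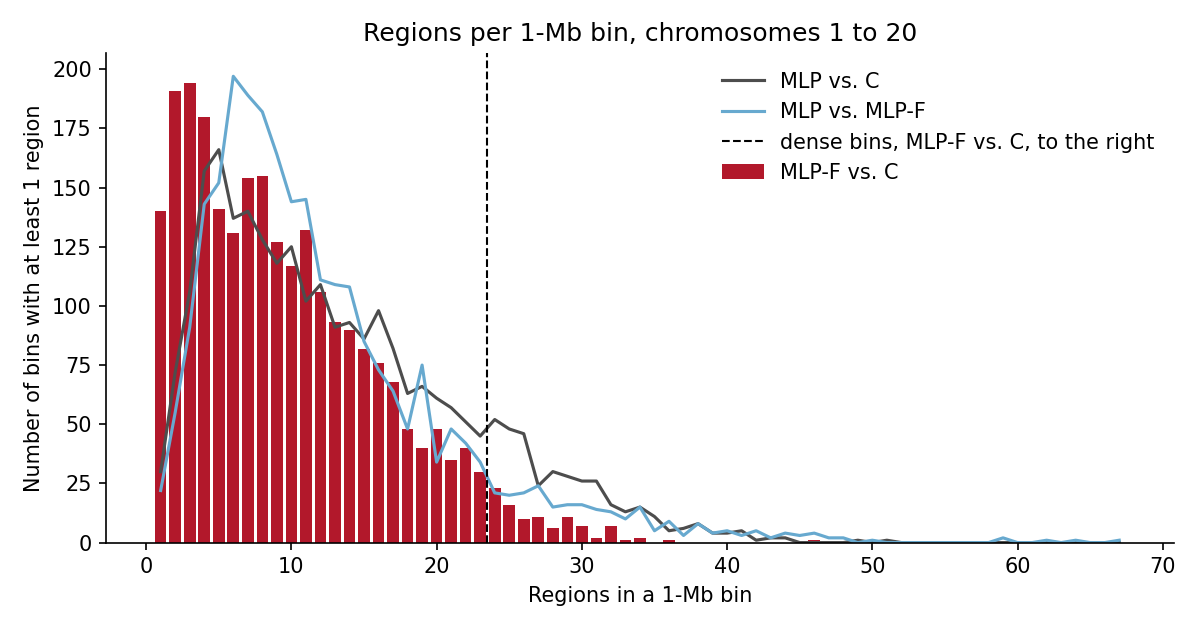
Number of 1-Mb bins (y axis) by the number of regions they hold (x axis) on chromosomes 1 to 20, with bars for MLP-F vs. C, lines for the other comparisons, and empty bins left out. The 98 bins of MLP-F vs. C with 24 or more regions lie to the right of the dashed line, with the densest at 46.

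The densest bin was on chromosome 17. It held 46 regions at 49 to 50 Mb, all within a stretch of 533 kb, chr17:49224538-49757071, while the megabases before and after held 3 and 2. The regions in it were both stronger and longer than the list as a whole. Of the 46, 19 (41.3%) scored at least 100 against 18.8% of all regions, 5 scored at least 200, and the median length was 833.5 bp against 655 bp. Their median score was 83.8, with a range from 50.2 to 541.7. The regions covered 9.09% of the stretch, and 30 of the 45 gaps between them were under 10 kb. It also held 4 of the runs of 6, the strongest of which, chr17:49317473-49336110, contained the highest score. The bin held 21 regions of MLP vs. C, with scores up to 241, and 3 of MLP vs. MLP-F, with scores up to 469. No annotated region lay in it. The nearest annotated regions with a symbol matched to a RefSeq gene were those of Prl5a2 and Arid4b. They lay 6055278 bp before the bin and 9341828 bp after it. Nearer than Arid4b, the listed region chr17:51936346-51936764 overlapped an annotated region without a symbol. No gene name can therefore be given to the bin.

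**Figure D5:**
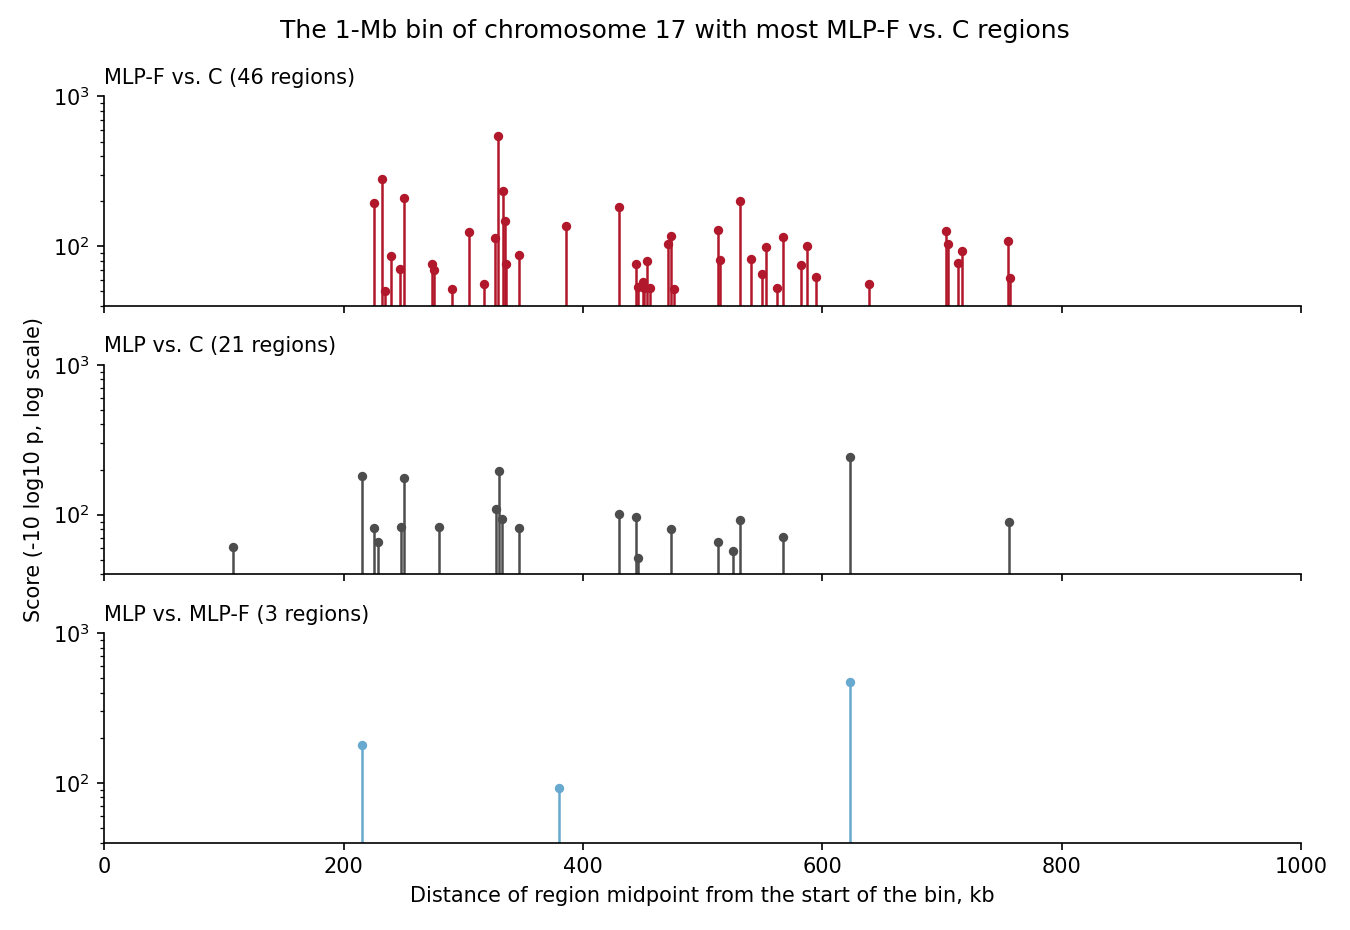
Score (−10 log10 p, log scale) of each region by the distance of its midpoint from the start of the densest 1-Mb bin, in kb, with a panel for each comparison. The 46 MLP-F vs. C regions lie in a stretch of 533 kb and reach 541.7, and the bin holds 21 regions of MLP vs. C and 3 of MLP vs. MLP-F.

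The next bin was chr10:101000001-102000000, with 36 regions of scores 53.0 to 342.8. MLP vs. C had 19 regions in it and MLP vs. MLP-F had 6. The nearest annotated regions with a symbol matched to a RefSeq gene were those of Map2k6 and Sdk2. Nearer than Sdk2, the listed region chr10:102076489-102078193 overlapped an annotated region without a symbol. In the RefSeq gene order of the later GRCr8 assembly, 10 named protein-coding genes lie between Map2k6 and Sdk2. These begin with the potassium channel genes Kcnj16 and Kcnj2 and with Sox9, a transcription factor of cartilage, testis and bile duct. With 34 regions each followed chr4:181000001-182000000 and chr15:24000001-25000000. The bin on chromosome 4 held annotated regions of Etnk1, an ethanolamine kinase of phospholipid synthesis, and of Sox5, a transcription factor. The bin on chromosome 15 held annotated regions only of U6 small nuclear RNA copies. In these bins MLP vs. C had 35 and 37 regions, and MLP vs. MLP-F 16 and 14. At place 5 was chr7:132000001-133000000, with 33 regions of scores 50.3 to 418.4, against 27 and 12 in the other lists. It lay between Pphln1, 49000 bp before it, and Twf1, 98097 bp after it. In GRCr8 the 4 named protein-coding genes between them are Prickle1, a planar cell polarity gene, Adamts20, a metalloprotease gene, Pus7l, and Irak4, a kinase of Toll-like receptor signalling.

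The leading bins of the other lists were not the leading ones here. The bin with most MLP vs. C regions, chr14:8000001-9000000, held 51 there and 31 in MLP-F vs. C. The bin with most MLP vs. MLP-F regions, chr7:10000001-11000000, held 67 there and 6 in MLP-F vs. C.

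Gene names could be given to a small share of the list. The study annotated 1210 regions, chosen from the comparisons of MLP with C and with MLP-F, and 1026 of these have a gene symbol. A MLP-F vs. C region overlapped such a region by at least 1 bp in 281 cases (1.16% of the list), with 261 different symbols. These 281 are thus a selection by another comparison, and they say nothing of the genes near the other regions. Of the 1168 annotated regions that overlap a MLP vs. C region, 1109 have MLP vs. C scores between 121.79 and 131.84, which the selection fixed. MLP vs. C values near 130 beside the genes below were therefore set by that selection. Among the 281 regions, 131 (46.6%, Wilson 95% interval 40.9 to 52.5) were labelled intronic by the study, 78 upstream and 69 downstream of the nearest gene. In all annotated regions with a symbol, 44.9% were intronic. The median score of the 281 was 82.1, beside 69.3 for the whole list.

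The highest-scoring regions with a gene name were those at Eml1 (1514) and at Lsm6 (chr19:30939911-30940881, 781), a gene for a ring protein that binds U6 RNA and takes part in splicing. At Lsm6 the MLP vs. C score was 1696. Next came Sfrs8, a splicing regulator, at 421, the small nucleolar RNA SNORA17 at 311, Frem2, an extracellular matrix gene, at 269, and Tbc1d23, a gene of Golgi transport, at 257. RGD1311344 followed with 234, and with 3100 in MLP vs. C, the highest score MACS gives there, and 900.5 in MLP vs. MLP-F. The last were Olr103, an olfactory receptor gene, at 215, the cartilage matrix gene Matn3 at 208 and Setd2 at 205. Of these 10, Eml1, Frem2, Tbc1d23, RGD1311344, Matn3 and Setd2 had the region in an intron, and the other 4 had it upstream.

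Over all the genes named in the study's tables, 261 of 865 (30.2%) had a MLP-F vs. C region. The lists below have at most 25 annotated members each and were drawn up with earlier results known, so their counts stand beside that share as a description and no list is set apart by them. List members were matched by exact symbol, and the lists do not hold every gene of their kind. Of the 47 listed genes of folate and methyl group metabolism and DNA methylation, which do not include Adk, 2 were annotated. A region was found at 1 of them. It lay downstream of Tet1, whose enzyme oxidises 5-methylcytosine on the way to its removal, at chr20:25034073-25034961 with a score of 109. None was listed at the annotated place of Mtr, methionine synthase, which uses folate to remake methionine. Of the genes listed under polycomb and trithorax, 3 of the 4 annotated had a region, beside the 30.2% over all named genes. Setd2, which trimethylates lysine 36 of histone H3, led with 205. Sfmbt1, a polycomb group protein, and Mllt3, a reader of acylated histones, scored 61.1 and 57.0. The roles given for Setd2 and Mllt3 do not by themselves place them in either group, although the list holds them. The Sfmbt1 region, chr16:6176514-6178118, lay in an intron. Its place scored 2905 in MLP vs. C and 2030 in MLP vs. MLP-F, so MLP-F exceeded C there by a far lower score than MLP exceeded either.

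Acadm, the medium-chain acyl-CoA dehydrogenase of fatty acid oxidation, had a pair of neighbouring regions downstream of the gene, chr2:251899718-251900324 and chr2:251900423-251901808, with scores of 53.6 and 134. In each of the other lists a single region covered both, with a score of 3100. Gpam, which starts triglyceride synthesis, had a region at 65.8. These were the only regions at the 10 annotated of 54 lipid genes, so 2 of the 10 had a region, beside 30.2% over all named genes. Of the genes listed under insulin and FOXO signalling, 3 of the 5 annotated had a region (30.2% over all named genes). They were Pdk1, a kinase that inhibits pyruvate dehydrogenase (159), Fto, an RNA demethylase gene linked to obesity (105), and Foxo3 (84.2). The roles given for Pdk1 and Fto are not steps of insulin or FOXO signalling, although the list holds them. The mineralocorticoid receptor gene Nr3c2 had a region at 146 in an intron, and Serpina11, a serpin gene, had one at 67.5, in each case 1 of 2 annotated members of its list.

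In the list for T cell and immune regulation, 3 of the 13 annotated members had regions, beside 30.2% over all named genes. They were the transcription factor genes Gata3 (116), Foxp1 (80.5) and Runx1 (79.0 and 58.3). Outside the list, Camp, the cathelicidin antimicrobial peptide gene (142), and Skap1 (162) had regions too. Both were named after the values were seen, and immune genes outside the list were not counted. Runx1 was also the 1 gene with a region of the 2 annotated among the blood cell genes. No region was listed at the annotated places of Ctla4, Cd28, Bach2, Nfatc2 or Satb1. Of the 9 annotated members of the cell cycle list, 5 had a region, again beside 30.2% over all named genes. The centrosomal genes Cep135 and Cep350 scored 170 and 128. The cyclin-dependent kinase family genes Pftk1 and Cdc2l6 scored 83.1 and 62.1, and the DNA repair gene Fanca scored 73.6. Outside the list, Cdc14a (83.41) and Ccnf (63.15) also had a region. These were likewise named after the values were seen, and cell cycle genes outside the list were not counted. Pftk1 and Fanca were like Sfmbt1 in having higher scores at the same place in the other lists, 1896 and 1031 in MLP vs. C and 846 and 414 in MLP vs. MLP-F.

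Of the 31 loci the study names, 25 were annotated under the same symbol. Of these, 13 had a MLP-F vs. C region, beside 30.2% over all named genes. Beside those given above they were Prdm8 (141), Arid5b (126), Prep (122), Vti1a (60.5), Myh10 (60.1) and Dym (53.0). No region was listed at the annotated places of the other 12, such as Agtrap, E2f7, Tyw3 and Abhd6. Glrx2, which the study also names, was annotated as GLRX2_RAT and so is outside these counts. It had an intronic region at 62.1. These loci were chosen in the study on the comparisons with MLP, so the count is no measure of how genes respond to MLP-F.

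The study tested 5 places by bisulphite sequencing, which reads methylated cytosines as C and unmethylated ones as T. The outcome of that sequencing is not used here, and a place named below is not thereby a place where a difference was found. The list held a region at 2 of them, Mcm6 and Sfmbt1. At Mcm6, a subunit gene of the replicative helicase, chr13:41054853-41055638 scored 60.5 and overlapped the tested place by 593 bp. At Sfmbt1 the whole region of 1605 bp lay inside it. At the angiotensin receptor-associated gene Agtrap the nearest listed region was 31534 bp away, at Dnmt1, the maintenance DNA methyltransferase gene, 100860 bp away, and at Fgf5 124024 bp away. The primers for Mcm6 are shown because they were designed for a place that overlaps a region of this list. Where in that place they lie was not analysed here. The study's primer list gives them as designed to the forward strand. The first has no C and the second has no G.
Mcm6 forward: tttggtaaatggagttgggatataa
Mcm6 reverse: ctttacaacatctctaaacaaatctatcc
Neither primer holds a CpG, and no letter is in capitals because none is singled out.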

How the data were processed

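MBD-seq libraries of pooled newborn rat liver DNA, 1 per diet, were compared in pairs. Per the labels and methods, fragments were captured with a MethylCap kit, sequenced and mapped to rn4, with CASAVA and Bowtie in the submitters' processing notes (version not given in the sources used here). With MLP-F as treatment and C as control, the authors ran MACS and deposited regions with a score of −10 log10 p. Starts were made 1-based. Chromosome length was the largest region end in the 3 lists. Bins were assigned by midpoint. Gene names came from the study's annotated tables by overlap of at least 1 bp; their values were not used. Intervals were Wilson (shares) and exact Poisson (counts), at 95%, for counting error only. The members and gene lists were chosen with earlier results of these data known. Named were the 10 highest-scoring, 5 longest and 10 highest-scoring annotated regions, 5 densest bins and list members with a region. Other genes without a region, flanking genes, runs, gaps and a further long region on chromosome 12 were named after values were seen. Camp, Skap1, Cdc14a and Ccnf, outside the gene lists, were also named in that way. Flanking genes came only from annotated regions with a symbol matched to a RefSeq protein-coding gene on the same chromosome. Scripts, in Python 3.11.15 with pandas 2.3.3 and SciPy 1.17.1, were tested on simulated regions.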

Additional observations from a re-analysis of the deposited data

How the results depend on the processing

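Of 23 alternatives, 9 left their value within the counting interval or, for counts, within 1.5 times, and 14 did not. With a score of at least 100 there were 4563 regions and with at least 200 there were 541. Median length was then 716 and 809 bp, 1.03% of regions of at least 100 were 2 kb or longer, and the median gap was 280892 bp. At that limit the densest chromosome was still 12, at 2.86 per Mb, but the sparsest was 4, at 1.46. Gaps under 5 kb made up 9.01% and under 20 kb 26.7%. At 2 times the median 483 bins were dense. With bins shifted by 500 kb, 11.8% of regions lay in dense bins, and with 2-Mb bins 3.82%. The shift split the chromosome 17 stretch over bins of 31 and 20 regions, and the fullest bin was then on chromosome 3, with 39. Within 10 kb of an annotated region with a gene symbol there were 601 regions, against 281 by overlap. No paired analysis was possible because each group was 1 library. Without reads or replicates, no value here bears on diet.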

Other observations

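Outside chromosomes 1 to 20 the MLP-F vs. C list held 1273 regions (4.98% of the list). On chromosome X there were 375, at 2.33 per Mb, with a median score of 73.8 and a highest score of 559.1. All animals were male, with a single X, and the part of this in the rate was not tested. On unplaced sequence there were 898, with a median of 73.0. The highest score there, 2245, was above the 2035 of the first region on the numbered chromosomes.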
